A study of Mus musculus with 8 samples.

Results

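The 42 genes described here encode the actin filaments of the cell, the myosin II motor that pulls on them, the proteins that bundle, cap and anchor them, a pair of intermediate filament proteins, and Srf, the transcription factor that many of these genes answer to. They were chosen by gene symbol from the deposited table, all 42 were found among its 24015 genes, and all 42 were among the 13527 genes with enough reads to be tested. The study sequenced total RNA of cardiac fibroblasts from C57BL/6J mice, wild type and aged 8 weeks. The cells were harvested before they met an osteogenic differentiation medium (day 0, titled CNTR) or once they had spent 7, 14 or 21 days in it. Each of these 4 times has 2 libraries, which makes 8. The medium is of the kind used to drive mesenchymal cells towards bone-forming cells. There is no library of fibroblasts cultured as long in plain medium, so the effects of the medium and of time in culture cannot be told apart. Whether replicate libraries stem from separate mice or cultures is not in the labels. Each p-value sets a difference only against the spread between libraries of a time, estimated over all 4 times and with the help of other genes. That spread may be technical.

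Actin filaments are built from globular actin, stabilised by tropomyosin, crosslinked by alpha-actinin and filamin, and pulled on by bipolar filaments of myosin II, whose activity is set by phosphorylation of its regulatory light chain. Fibroblasts placed on stiff plastic assemble these parts into stress fibres tied to focal adhesions, and myofibroblasts, the contractile form found in scars, add the smooth muscle actin Acta2. Free actin monomer holds back the cofactors of Srf (Mkl1 and Mkl2, also called MRTFs), which enter the nucleus when monomer is used up and then act through a DNA element called the CArG box in the promoters of many of these genes. In vessel walls some of these genes mark smooth muscle cells, with Myh11, Cnn1, Smtn and Lmod1 the more restricted ones.

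The CArG box is the sequence through which Srf is known to act, so the members with such a box just upstream of their start are shown. RefSeq windows (build GRCm38.p6, not the mm9 build of the submitters' processing notes) were matched by symbol for 36 members, 48 windows in all, each holding the 250 bases before a transcript start. A CArG box lay on either strand in 9 of the 36 genes, 25%, and in 1.62% of all 27025 genes with a window. The windows of Srf itself, of the cytoplasmic actin Actg1, of the myosin regulatory light chain Myl9 and of the calponin Cnn2 are printed whole, 5′ to 3′ on the gene's strand, with the boxes in capitals.
Srf (chr17:46556163-46556412, minus strand): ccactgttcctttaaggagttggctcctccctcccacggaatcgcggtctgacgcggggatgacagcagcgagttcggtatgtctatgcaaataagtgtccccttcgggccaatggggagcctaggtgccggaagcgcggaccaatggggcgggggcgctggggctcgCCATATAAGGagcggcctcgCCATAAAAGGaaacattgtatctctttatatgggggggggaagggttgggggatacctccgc
Actg1 (chr11:120348496-120348745, minus strand): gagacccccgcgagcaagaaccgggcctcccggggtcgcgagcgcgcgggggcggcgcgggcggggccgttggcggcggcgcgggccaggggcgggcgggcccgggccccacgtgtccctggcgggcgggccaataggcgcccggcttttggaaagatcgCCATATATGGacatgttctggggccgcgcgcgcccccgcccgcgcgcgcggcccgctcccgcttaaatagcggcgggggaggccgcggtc
Myl9 (chr2:156775214-156775463, plus strand): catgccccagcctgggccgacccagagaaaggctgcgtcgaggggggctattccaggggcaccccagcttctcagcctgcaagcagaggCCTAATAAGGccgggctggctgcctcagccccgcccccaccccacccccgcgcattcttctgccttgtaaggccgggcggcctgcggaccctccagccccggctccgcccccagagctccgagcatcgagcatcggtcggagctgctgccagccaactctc
Cnn2 (chr10:79988350-79988599, plus strand): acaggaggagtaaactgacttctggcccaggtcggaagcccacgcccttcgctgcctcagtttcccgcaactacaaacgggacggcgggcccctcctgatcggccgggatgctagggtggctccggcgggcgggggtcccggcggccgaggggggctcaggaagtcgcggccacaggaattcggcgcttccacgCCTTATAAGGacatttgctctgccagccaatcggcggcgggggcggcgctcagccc
Around the other boxes 40 bases are shown, again with the box in capitals.
Vcl (chr14:20929156-20929195, plus strand): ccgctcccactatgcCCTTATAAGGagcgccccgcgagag
Lima1 (chr15:99820172-99820211, minus strand): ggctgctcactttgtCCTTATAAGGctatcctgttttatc
Fhl1 (chrX:56779566-56779605, plus strand): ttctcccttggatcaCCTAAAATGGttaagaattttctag
Fhl2 (chr1:43196833-43196872, minus strand): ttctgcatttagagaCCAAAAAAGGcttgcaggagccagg
Fhl2 (chr1:43163968-43164007, minus strand): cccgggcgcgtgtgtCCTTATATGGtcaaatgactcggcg
Myl6 (chr10:128493035-128493074, minus strand): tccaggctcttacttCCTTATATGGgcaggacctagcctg
Srf held a pair of boxes, whose first bases lay 82 and 62 bases before the start. The MCAT motif of the TEAD factors (CATTCC or GGAATG) was in 13 of the 36 genes, 36.1%, against 14.4% of all genes with a window, and its matches can overlap those of the CArG box. A match is a run of letters, not a measured binding site, and the absence of one says only that the letters are not in that window. Myh11, Tagln, Tgfb1i1, Actb, Csrp2 and Actg2 had no entry in the table.

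Between 13399313 and 21883498 reads were assigned to genes per library, and the 2 libraries of a time had correlations across genes between 0.988 and 0.994 on the log2 scale. All 10 fibroblast markers looked for were detected, among them Col1a1, Pdgfra and Tcf21, and Tcf21 rose by day 7 by 1.83 ± 0.10 (SE, adjusted p = 1.36e-08) on the log2 scale. Of the 10, 5 were called higher and 4 lower at day 7 against day 0, and the most abundant of those lower was the collagen Col1a1, with a mean of 68602 normalized counts at day 7, against 249947 at day 0. Their summed normalized counts were 573236 to 589535 before the medium, 359354 to 379737 after 7 days, 208167 to 268434 after 14 days and 351228 to 425989 after 21 days. Markers of other cells moved too. All 14 macrophage and blood cell markers measured rose by day 7, with summed normalized counts of 1289 to 1404 at day 0, 10579 to 13052 at day 7, 21738 to 40699 at day 14 and 21559 to 22103 at day 21. All 8 proliferation markers fell by day 7, with sums of 7135 to 7312 at day 0, 1160 to 1161 at day 7, 1223 to 1244 at day 14 and 1033 to 1117 at day 21. Of 22 cardiomyocyte and striated muscle markers, Myh6, Myod1 and Myog had no read, 14 stayed under 10 normalized counts in every library, and Tnnt2, a troponin, alone made up most of the sum, with a mean of 11409 at day 7, against 1170.3 at day 0. The actin Acta1 went the other way, with a mean of 138 at day 7, against 442 at day 0. Of the 8 tested, 5 were called higher and 1 lower at day 7 against day 0. Among all tested genes 27.5% were called higher and 27.9% lower. Adipocyte markers, 8 in number, summed to 931 to 1212 before the medium, 8252 to 8542 after 7 days, 11566 to 12168 after 14 days and 7388 to 7592 after 21 days, and most of these counts came from Lpl and Fabp4. Osteoblast and osteocyte markers, of which Sp7, Ibsp and Mepe had no read, summed to 2839 to 3172 before the medium, 5433 to 6415 after 7 days, 9993 to 11455 after 14 days and 6463 to 9142 after 21 days, mostly from Spp1. In this list Runx2 averaged 238 at day 7, against 284 at day 0. Alpl averaged 84.1 at day 7 and 491 at day 21, against 167 at day 0. Only 4 of these markers were tested, of which 2 were called higher and 1 lower at day 7 against day 0. Endothelial markers summed to 769 to 783 at day 0, 618 to 631 at day 7, 332 to 407 at day 14 and 317 to 448 at day 21. Mesothelial and epithelial markers summed to 1173 to 1282 at day 0, 846 to 857 at day 7, 1597 to 1671 at day 14 and 430 to 958 at day 21. In the latter list Msln averaged 402 at day 7, against 19.4 at day 0, while Upk3b averaged 385, against 832, and Lrrn4 44.4, against 295. Of 12 smooth muscle and pericyte markers outside the 42 genes, 3 stayed under 10 in every library. The 12 summed to 11268 to 11749 at day 0, 14122 to 14691 at day 7, 5743 to 7008 at day 14 and 10916 to 15226 at day 21. Most of these counts came from Pdgfrb, with means of 9723 at day 0, 11244 at day 7, 5268 at day 14 and 10860 at day 21. The part of these markers in the changes below was not tested. In bulk RNA, fewer cells of a type and less RNA per cell cannot be told apart.

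By day 7 most of the contractile and cytoskeletal set had fallen. Of the 42 members 36 were called at day 7 against day 0, where 55.4% of all tested genes were called. Of these, 31 were lower at day 7, where 27.9% of all tested genes were called lower, and 5 were higher, where 27.5% of all tested genes were. The median member stood at -0.84 on the log2 scale at day 7 against day 0, and the median of all tested genes at -0.01. Falls of at least 2-fold were seen in 20 members, against 9.05% of all tested genes. The largest were those of the smooth muscle isoforms and their companions, Cnn1, Actg2, Tagln and Acta2, and the 5 members that rose were Mylk, Synpo2, Lmod1, Myh11 and Fhl1, of which the first 4 were among the 5 members with the lowest levels per length at day 0. Together the 42 genes held 3.71 and 3.77% of all reads in genes before the medium, 1.96 and 1.97% after 7 days, 1.57 and 1.73% after 14, and 1.67 and 1.70% after 21. Vcl, Des, Vim, Pdlim5, Fhl2 and Ablim1 were not called at day 7. Calls are at an adjusted p below 0.05 from limma over all 13527 genes. Leaving out day 0 replicate 1 or day 7 replicate 1 left 3 members called higher, with Myh11 and Fhl1 lost, and Fhl1 was also lost without the other day 0 or day 7 library and by DESeq2. The fall of Myl6 lost its call without day 0 replicate 1, day 0 replicate 2 or day 7 replicate 1. The other 30 falls and 3 rises held under all 17 alternatives tried.

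**Figure D1:**
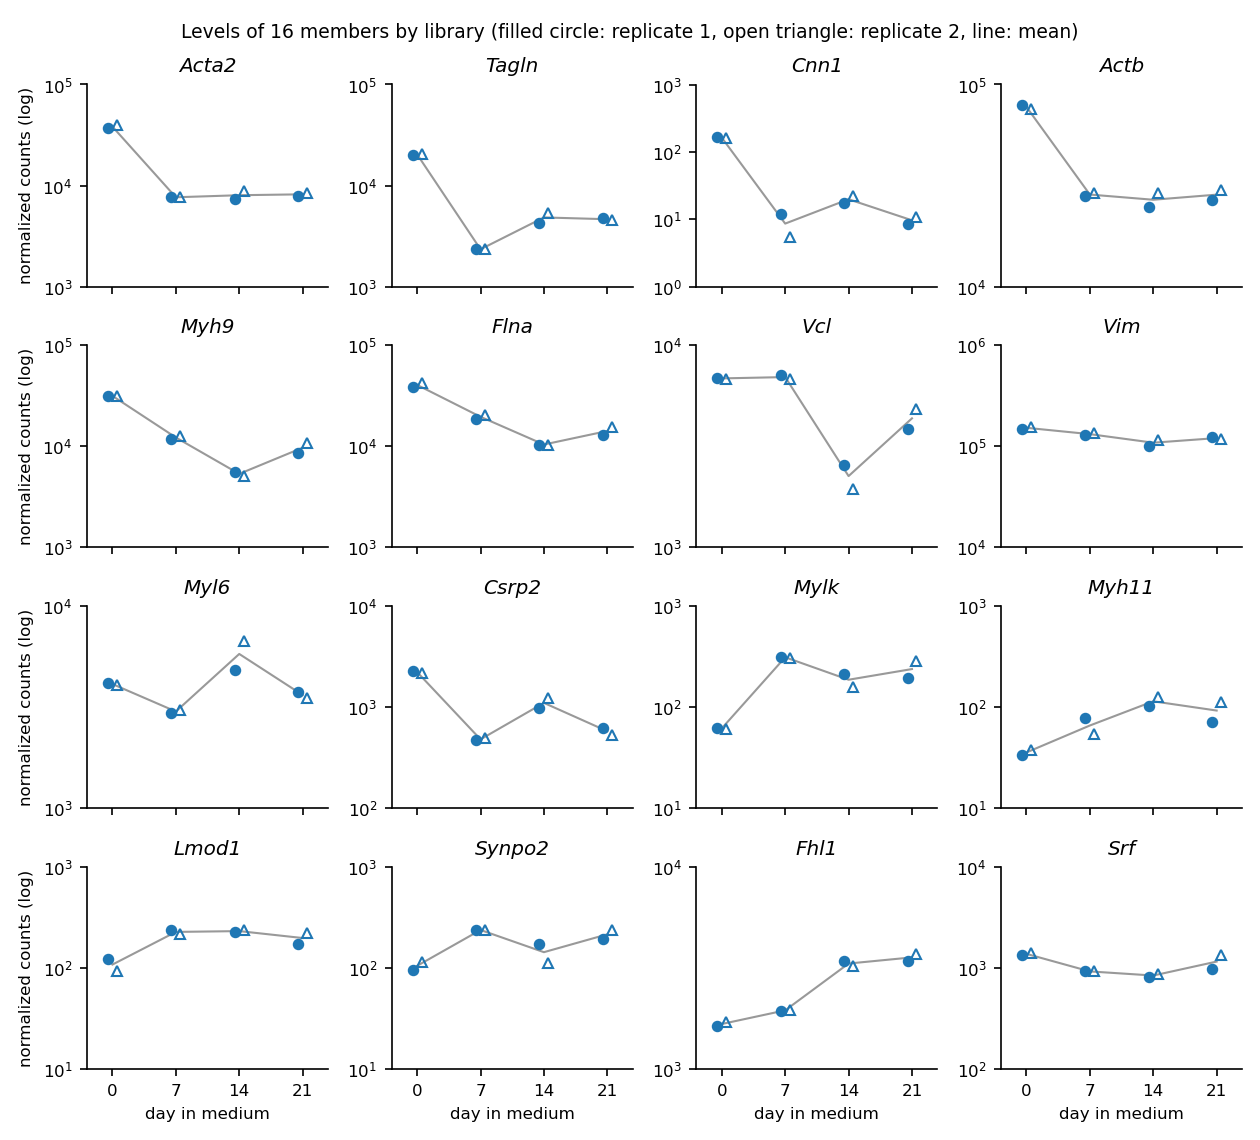
Normalized counts on a log axis for 16 of the 42 members at days 0, 7, 14 and 21, with replicate 1 as a filled circle, replicate 2 as an open triangle and a line through the means. Acta2, Tagln and Cnn1 stand highest in both day 0 libraries, whereas Mylk and Myh11 stand lowest there.

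All 4 actin isoforms fell in the first week and none was called in the second. Acta2, the smooth muscle actin that marks myofibroblasts, had 37044 and 39457 normalized counts before the medium, 7615 and 7680.4 after 7 days, 7294 and 8733 after 14 days, and 7894 and 8466 after 21 days. Both day 0 libraries lay far above the other 6, and the day 14 libraries spanned the range of those of days 7 and 21. The log2 difference was -2.32 ± 0.11 (SE, adjusted p = 4.40e-09) at day 7 and -2.23 ± 0.11 (SE, adjusted p = 4.40e-09) at day 21, each against day 0. Actg2, the enteric smooth muscle actin, was scarce, with 108 and 109 normalized counts before the medium, 11.8 and 3.57 after 7 days, 7.29 and 29.2 after 14 days, and 6.41 and 12.6 after 21 days. Its day 7 difference was -3.84 ± 0.59 (SE, adjusted p = 1.53e-04), which rests on 17 reads in both day 7 libraries together. It was -2.94 with a pseudocount of 8, -4.58 without day 7 replicate 1 and -3.09 without day 7 replicate 2. Against day 0 its day 14 difference of -2.79 became -1.86 without day 14 replicate 1 and -3.72 without day 14 replicate 2.

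The cytoplasmic actins fell less steeply. Actb, the beta isoform found in every cell and often used as a loading control, had 79322 and 75542 normalized counts before the medium, 28047 and 28996 after 7 days, 24673 and 29089 after 14 days, and 26889.8 and 30094 after 21 days. Both day 0 libraries were above all later ones. Its difference at day 7 against day 0 was -1.44 ± 0.12 (SE, adjusted p = 9.66e-07). Actg1, the gamma isoform, had 28457 and 31196 normalized counts before the medium, 8685 and 9379.6 after 7 days, 7041 and 8309 after 14 days, and 9060.5 and 10037 after 21 days. Again the day 0 pair stood apart, the day 7 difference was -1.72 ± 0.11 (SE, adjusted p = 9.00e-08), and the day 14 libraries were the lowest. Expressed per kilobase of transcript, the scale on which genes can be set side by side, Actb had 14839.7 at day 21 and 40329 at day 0. Acta2 had 4019.7 at day 21 and 18796 at day 0, and Actg1 4892 at day 21 and 15280.1 at day 0. Acta2 was therefore above Actg1 at day 0 and below it at day 21. Actg2 had 7.15 at day 21 and 81.3 at day 0. Of the summed actin signal per length, Acta2 held 25.2% ± 0.977 before the medium, 16.2% ± 0.333 after 7 days, 17.99% ± 0.150 after 14 days and 16.9% ± 0.401 after 21 days (SD, n = 2), and Actb held 54.1% ± 2.19 before the medium, 63.9% ± 0.200 after 7 days, 63.99% ± 0.162 after 14 days and 62.4% ± 0.405 after 21 days (SD, n = 2). Acta2 was thus a smaller part of the actin signal in each later library than in either day 0 library, and Actb a larger one. These shares were not tested. Reads of Actb and Actg1 can be exchanged with each other and with their processed pseudogenes, so the split between them is uncertain.

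**Figure D2:**
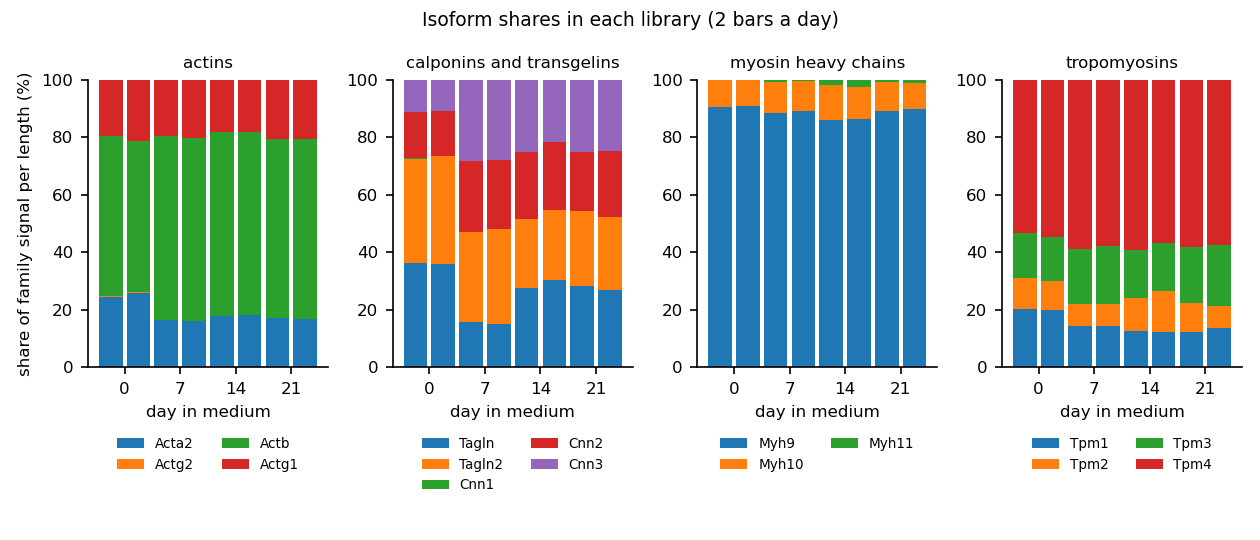
Share in percent of the summed signal per length of the actins, the calponins and transgelins, the myosin heavy chains and the tropomyosins taken by each isoform, with 1 stacked bar per library and 2 bars at each of days 0, 7, 14 and 21. The Acta2 band is widest in the day 0 bars, and the Tagln band narrows at day 7 and is wider again at day 14.

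The calponins and transgelins, which bind along actin filaments, fell in all 5 members. Tagln (SM22 alpha, an early marker of smooth muscle and myofibroblasts) had 20038 and 20653 normalized counts before the medium, 2338 and 2332 after 7 days, 4269 and 5388 after 14 days, and 4760.4 and 4511 after 21 days. It was highest at day 0 and lowest at day 7, and the day 14 and day 21 libraries lay between these without touching either. The differences were -3.12 ± 0.11 (SE, adjusted p = 4.81e-10) at day 7 against day 0, 1.04 ± 0.11 (SE, adjusted p = 3.83e-05) at day 14 against day 7, and 0.99 ± 0.11 (SE, adjusted p = 2.11e-04) at day 21 against day 7. Cnn1, the calponin of differentiated smooth muscle, had 166 and 158 normalized counts before the medium, 11.8 and 5.35 after 7 days, 17.3 and 22.2 after 14 days, and 8.54 and 10.7 after 21 days. It had the largest fall of the set, -4.18 ± 0.35 (SE, adjusted p = 8.41e-07) at day 7 against day 0, and -3.95 ± 0.35 (SE) at day 21. The day 7 value was -3.39 with a pseudocount of 8. Its partial return at day 14, 1.19 ± 0.35 (SE, adjusted p = 0.0133) against day 7, was lost without day 7 replicate 2 or day 14 replicate 2.

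Tagln2, the transgelin of non-muscle cells, had 19823 and 21236 normalized counts before the medium, 4624 and 5003 after 7 days, 3683 and 4299.8 after 14 days, and 4352 and 4243 after 21 days. Day 0 did not overlap any later time, and the difference was -2.09 ± 0.10 (SE, adjusted p = 6.31e-09) at day 7. Cnn2 and Cnn3, the calponins of non-muscle cells, fell least in this family. Cnn2 had 13650.5 and 13939.8 normalized counts before the medium, 5669.5 and 5722 after 7 days, 5545 and 6441 after 14 days, and 5263 and 5917 after 21 days. Its difference was -1.28 ± 0.10 (SE, adjusted p = 5.80e-07) at day 7, and it was not called between any pair of later times. Cnn3, the acidic calponin, had 7877 and 7822 normalized counts before the medium, 5358 and 5470.3 after 7 days, 4939.9 and 4912 after 14 days, and 5415 and 5366 after 21 days. It too was called at day 7 (-0.54 ± 0.09 SE, adjusted p = 1.95e-04) and in neither later week. Within the family's signal per length Cnn3 held 10.9% ± 0.352 before the medium, 27.9% ± 0.235 after 7 days, 23.3% ± 2.38 after 14 days and 25% ± 0.189 after 21 days (SD, n = 2), and Tagln 36.2% ± 0.218 before the medium, 15.5% ± 0.386 after 7 days, 29.04% ± 1.92 after 14 days and 27.6% ± 1.08 after 21 days (SD, n = 2).

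Myosin II has 3 heavy chain genes here, and their courses differed. Myh9, the main non-muscle heavy chain of fibroblasts (IIA), had 31873 and 31310.2 normalized counts before the medium, 11749 and 12723 after 7 days, 5619 and 5061 after 14 days, and 8534 and 10866 after 21 days. Every time was separate from every other, with day 0 highest and day 14 lowest, and the difference was -1.37 ± 0.12 (SE, adjusted p = 1.33e-06) at day 7 and -1.71 ± 0.12 (SE, adjusted p = 1.30e-07) at day 21, each against day 0. Myh10 (IIB) had 3371 and 3190.1 normalized counts before the medium, 1525 and 1568 after 7 days, 832 and 681 after 14 days, and 982 and 1128 after 21 days. The order of times was the same, and the difference was -1.08 ± 0.11 (SE, adjusted p = 5.44e-06) at day 7 against day 0. Myh11, the smooth muscle heavy chain, was rare at 33.4 and 37.9 normalized counts before the medium, 77.4 and 54.4 after 7 days, 104 and 125 after 14 days, and 71.6 and 114 after 21 days. Both day 0 libraries were the lowest of the 8. Its difference was 0.85 ± 0.25 (SE, adjusted p = 0.0126) at day 7, a call lost without day 0 replicate 1 or day 7 replicate 1. It was 1.65 ± 0.25 (SE, adjusted p = 8.18e-05) at day 14 and 1.32 ± 0.25 (SE, adjusted p = 6.70e-04) at day 21, each against day 0. Per length Myh9 still made up 90.9% ± 0.205 before the medium, 88.7% ± 0.493 after 7 days, 86.3% ± 0.301 after 14 days and 89.7% ± 0.472 after 21 days of the heavy chain signal (SD, n = 2), and Myh11 0.117% ± 0.0121 before the medium, 0.547% ± 0.162 after 7 days, 2.12% ± 0.438 after 14 days and 0.960% ± 0.155 after 21 days (SD, n = 2).

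The light chains and regulators of myosin did not move as one. Myl9, the regulatory light chain of smooth muscle and stress fibres, had 3574 and 3524 normalized counts before the medium, 864 and 954 after 7 days, 1029.5 and 1518 after 14 days, and 885 and 1037 after 21 days. The day 0 pair lay above all others, and the difference was -1.97 ± 0.15 (SE, adjusted p = 4.01e-07) at day 7. Myl6, the essential light chain, had 4152 and 4083 normalized counts before the medium, 2957 and 3066 after 7 days, 4848 and 6759 after 14 days, and 3743 and 3527 after 21 days. Its level was lowest at day 7 and highest at day 14, with -0.45 ± 0.13 (SE, adjusted p = 0.0106) at day 7 against day 0 and 0.93 ± 0.13 (SE, adjusted p = 1.59e-04) at day 14 against day 7. The day 7 call was lost without either day 0 library or day 7 replicate 1. Mylk, the kinase that phosphorylates the regulatory light chain, had the largest rise of the 42 genes. It had 62.1 and 61.4 normalized counts before the medium, 316 and 308 after 7 days, 214 and 160.1 after 14 days, and 193 and 284 after 21 days. All 6 later libraries were above both at day 0, and the difference was 2.32 ± 0.19 (SE, adjusted p = 7.37e-07) at day 7 and 1.91 ± 0.19 (SE, adjusted p = 3.21e-06) at day 21. Even at day 7 its level per kilobase was 39.9, against 806 for its substrate Myl9.

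Caldesmon (Cald1), which holds myosin off the filament, had 24682 and 22343 normalized counts before the medium, 14976 and 13707 after 7 days, 9771 and 8304 after 14 days, and 11193 and 11289 after 21 days. Both day 0 libraries were highest, and the difference was -0.71 ± 0.11 (SE, adjusted p = 1.59e-04) at day 7. Smoothelin (Smtn), a filament-binding protein of contractile smooth muscle, had 2179.9 and 2094 normalized counts before the medium, 889 and 979.8 after 7 days, 684 and 698 after 14 days, and 682 and 939.6 after 21 days. Its difference was -1.19 ± 0.13 (SE, adjusted p = 9.48e-06) at day 7 and -1.41 ± 0.13 (SE, adjusted p = 1.65e-06) at day 21.

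All 4 tropomyosins, the coiled coils that lie along actin, fell in the first week. Tpm1 had 11998 and 11466 normalized counts before the medium, 4761 and 4581 after 7 days, 4991 and 5346 after 14 days, and 4219 and 4079 after 21 days. Tpm2 had 4869 and 4360.3 normalized counts before the medium, 1909 and 1834 after 7 days, 3440.3 and 4749.8 after 14 days, and 2669 and 1808 after 21 days. Tpm4 had 23428 and 23139 normalized counts before the medium, 14441 and 13643 after 7 days, 17199.6 and 18300.3 after 14 days, and 14852 and 12749 after 21 days. For all 3 genes both day 0 libraries were above both at day 7, and the differences were -1.33 ± 0.09 (SE, adjusted p = 1.22e-07) for Tpm1, -1.30 ± 0.17 (SE, adjusted p = 4.46e-05) for Tpm2 and -0.73 ± 0.11 (SE, adjusted p = 1.04e-04) for Tpm4. Tpm2, common in smooth muscle, had returned at day 14 to levels that overlapped those of day 0, with -0.19 ± 0.17 (SE, adjusted p = 0.344) at day 14 against day 0. It was called without day 14 replicate 2 (-0.42, adjusted p = 0.043). Tpm3, of which mouse has processed copies that may take some of its reads, had 7169 and 6932 normalized counts before the medium, 4914 and 4976 after 7 days, 5122 and 5570.3 after 14 days, and 5285 and 4932 after 21 days. It fell by 0.51 ± 0.09 on the log2 scale at day 7 (SE, adjusted p = 4.60e-04). Per length Tpm4 was the main tropomyosin throughout, with 53.96% ± 0.768 before the medium, 58.4% ± 0.722 after 7 days, 57.95% ± 1.57 after 14 days and 57.7% ± 0.446 after 21 days of the family's signal (SD, n = 2), and Tpm1 held 20.02% ± 0.181 before the medium, 14.3% ± 0.00673 after 7 days, 12.4% ± 0.277 after 14 days and 12.8% ± 0.979 after 21 days (SD, n = 2). Lmod1, the leiomodin of smooth muscle that starts new filaments, rose, with 123 and 94.1 normalized counts before the medium, 238 and 218 after 7 days, 225 and 239.6 after 14 days, and 173 and 224 after 21 days. Both day 0 libraries were lowest, and the difference was 1.08 ± 0.17 (SE, adjusted p = 1.76e-04) at day 7 against day 0.

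Of the 5 crosslinkers 4 fell and 1 rose. Actn1, the alpha-actinin that bundles stress fibres, had 36125 and 37662 normalized counts before the medium, 10329.8 and 10769.5 after 7 days, 4894 and 4017 after 14 days, and 6637 and 7505 after 21 days. No pair of times overlapped, and the difference was -1.81 ± 0.11 (SE, adjusted p = 6.53e-08) at day 7, -3.06 ± 0.11 (SE, adjusted p = 4.26e-10) at day 14 and -2.39 ± 0.11 (SE, adjusted p = 3.68e-09) at day 21, each against day 0. Actn4, its non-muscle relative, had 21429 and 20711 normalized counts before the medium, 14223 and 14705 after 7 days, 8153 and 7420.4 after 14 days, and 9906 and 12159 after 21 days. Its difference was smaller, at -0.54 ± 0.11 (SE, adjusted p = 0.00147) at day 7. Flna, the filamin that ties filaments into a gel and to integrins, had 38306 and 42878 normalized counts before the medium, 18730.2 and 20499.5 after 7 days, 10420.2 and 10432 after 14 days, and 12875 and 15497 after 21 days. The day 7 difference was -1.05 ± 0.12 (SE, adjusted p = 1.09e-05).

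Flnc, the muscle filamin, had 4306 and 4861 normalized counts before the medium, 1309 and 1488 after 7 days, 715 and 673 after 14 days, and 857 and 783 after 21 days. Its difference was -1.71 ± 0.11 (SE, adjusted p = 5.18e-08) at day 7 and -2.48 ± 0.11 (SE, adjusted p = 1.34e-09) at day 21. For Actn1, Actn4, Flna and Flnc alike the day 0 libraries were highest and the day 14 libraries lowest. Synpo2 (myopodin), a Z-disc and actin-bundling protein of muscle, moved the other way, with 95.5 and 115 normalized counts before the medium, 236 and 241 after 7 days, 174 and 113 after 14 days, and 194 and 237 after 21 days. Its difference was 1.18 ± 0.20 (SE, adjusted p = 2.95e-04) at day 7 and 1.03 ± 0.20 (SE, adjusted p = 7.13e-04) at day 21. The day 14 libraries reached down into the day 0 range, at 0.42 ± 0.20 (SE, adjusted p = 0.076), and were called without day 14 replicate 2 (0.73), by edgeR and with the length and GC trend removed.

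Among the proteins of the adhesion site, vinculin (Vcl), which reinforces the link of talin to actin, was not called in the first week. It had 6918 and 6806 normalized counts before the medium, 7127 and 6805 after 7 days, 2571 and 1937 after 14 days, and 3835 and 4867 after 21 days. The day 7 and day 0 libraries overlapped, with a difference of 0.02 ± 0.14 (SE, adjusted p = 0.906). Its level then fell at day 14, by the largest weekly fall of the second week among the 42 genes, -1.64 ± 0.14 (SE, adjusted p = 1.39e-05). Vcl shares 2090 exonic bases with Ap3m1 on the opposite strand in GENCODE M21, and the strand of the libraries is not stated. Ap3m1 averaged only 1352 normalized counts at day 0 and 598 to 700 at the later times. Talin (Tln1), which couples integrins to actin, had 14526 and 15493 normalized counts before the medium, 8717 and 9499 after 7 days, 4194 and 4099 after 14 days, and 5919 and 8259.9 after 21 days. The day 7 difference was -0.72 ± 0.13 (SE, adjusted p = 6.43e-04). Zyxin (Zyx), recruited to stress fibres under tension, had 18205 and 19763 normalized counts before the medium, 9709 and 9903 after 7 days, 6475 and 6806 after 14 days, and 6399 and 8084 after 21 days. At day 7 it stood at -0.95 ± 0.12 (SE, adjusted p = 2.07e-05). Hic-5 (Tgfb1i1), a paxillin relative induced by TGF-beta, had 3603 and 3807 normalized counts before the medium, 1603 and 1763 after 7 days, 1327 and 1516 after 14 days, and 1460.1 and 1784 after 21 days. The day 7 difference was -1.14 ± 0.11 (SE, adjusted p = 3.93e-06). For these last 3 genes both day 0 libraries lay above all 6 later ones.

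Neither intermediate filament gene was called in the first week. Vimentin (Vim), the intermediate filament of mesenchymal cells and the most abundant of the 42 transcripts per length, had 149253 and 156112 normalized counts before the medium, 129635 and 134608 after 7 days, 100875 and 116539 after 14 days, and 123685 and 117863 after 21 days. Its libraries at day 7 were below those at day 0, but at -0.21 ± 0.15 (SE, adjusted p = 0.243) the difference was not called, except under quantile normalization. Vim was the 1 member called in none of the 3 weekly steps. Against day 0 it was called at day 14 (-0.49 ± 0.15 SE, adjusted p = 0.00878) but not without day 0 replicate 2 (adjusted p = 0.0562) or with no filter on low values. At day 21 it was not called (-0.34 ± 0.15 SE, adjusted p = 0.062). It was called there by edgeR and DESeq2, under quantile normalization, with the length and GC trend removed, and without either day 14 library (adjusted p = 0.0348 and 0.0338). Desmin (Des), the muscle intermediate filament, was rare at 21.5 and 30.1 normalized counts before the medium, 13.7 and 16.9 after 7 days, 31.9 and 37.4 after 14 days, and 14.95 and 8.75 after 21 days. It was not called at day 7 (-0.70 ± 0.34 SE, adjusted p = 0.097), and its call at day 21 against day 0 (-1.08 ± 0.34 SE, adjusted p = 0.0154) was lost without day 0 replicate 2 or day 21 replicate 2 and by DESeq2.

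Srf itself fell, with 1359 and 1405 normalized counts before the medium, 927 and 926 after 7 days, 823 and 865 after 14 days, and 983 and 1336 after 21 days. The day 0 pair was highest, although day 21 replicate 2 came close to it, and the difference was -0.58 ± 0.13 (SE, adjusted p = 0.00209) at day 7 against day 0 and -0.27 ± 0.13 (SE, adjusted p = 0.0853) at day 21. At day 21 it was called without replicate 2 of that day (-0.49, adjusted p = 0.00254). The 8 LIM domain proteins, adaptors that dock on actinin, zyxin or the filament, held 4 genes that fell by day 7, 1 that rose and 3 that were not called. Csrp2 had 2273 and 2183 normalized counts before the medium, 469 and 492 after 7 days, 983 and 1225 after 14 days, and 625 and 532 after 21 days. It was lowest at day 7, with -2.21 ± 0.12 (SE, adjusted p = 1.92e-08) against day 0 and 1.19 ± 0.12 (SE, adjusted p = 3.20e-05) at day 14 against day 7. Its relative Csrp1 had 9432 and 10057 normalized counts before the medium, 6455 and 6377 after 7 days, 6083 and 6647 after 14 days, and 6701 and 5727 after 21 days. At day 7 it stood at -0.60 ± 0.10 (SE, adjusted p = 3.31e-04). Pdlim7 (enigma) had 2604 and 2437 normalized counts before the medium, 980.1 and 1140.2 after 7 days, 950.3 and 1057 after 14 days, and 872 and 948 after 21 days. The day 7 difference was -1.25 ± 0.11 (SE, adjusted p = 9.52e-07). Lima1 (EPLIN), which slows filament turnover, had 2939 and 2663 normalized counts before the medium, 2030.4 and 1952 after 7 days, 1861 and 1567 after 14 days, and 1988 and 2225 after 21 days. At day 7 it stood at -0.49 ± 0.11 (SE, adjusted p = 0.00203). In each of these 4 the day 0 libraries were the highest.

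The remaining LIM proteins behaved differently. Fhl1 rose, with 1632 and 1711 normalized counts before the medium, 1942 and 1964 after 7 days, 3409 and 3251 after 14 days, and 3439 and 3705 after 21 days. Every library of days 14 and 21 was above every library of days 0 and 7. Its differences were 0.77 ± 0.09 (SE, adjusted p = 5.43e-05) at day 14 against day 7 and 1.09 ± 0.09 (SE, adjusted p = 4.35e-07) at day 21 against day 0. Fhl2, a cofactor that also binds Srf, had 4599 and 4352 normalized counts before the medium, 4190.2 and 4288 after 7 days, 5635 and 6056 after 14 days, and 3905 and 4309.9 after 21 days. It was highest at day 14 and uncalled at day 7 (-0.08 ± 0.09 SE, adjusted p = 0.501). Pdlim5 (ENH), which scaffolds kinases on actinin, had 4063 and 3819 normalized counts before the medium, 3734 and 3629 after 7 days, 2721 and 2419 after 14 days, and 3079 and 3035 after 21 days. Its difference was -0.10 ± 0.09 (SE, adjusted p = 0.392) at day 7 and -0.37 ± 0.09 (SE, adjusted p = 0.0045) at day 21, and the day 21 call was lost without day 0 replicate 1 (adjusted p = 0.0534). Ablim1, an actin-binding LIM protein, had 1359.9 and 1361 normalized counts before the medium, 1685 and 1518 after 7 days, 1205 and 1154 after 14 days, and 1358 and 1476 after 21 days. It was called neither at day 7 (0.23 ± 0.10 SE, adjusted p = 0.0539) nor at day 21 (0.06 ± 0.10 SE, adjusted p = 0.628). Both differences were called with the length and GC trend removed. At day 7 it was also called under TMM scaling, quantile normalization and edgeR, and without any 1 of the day 14 or day 21 libraries (adjusted p = 0.0333 to 0.0419).

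**Figure D3:**
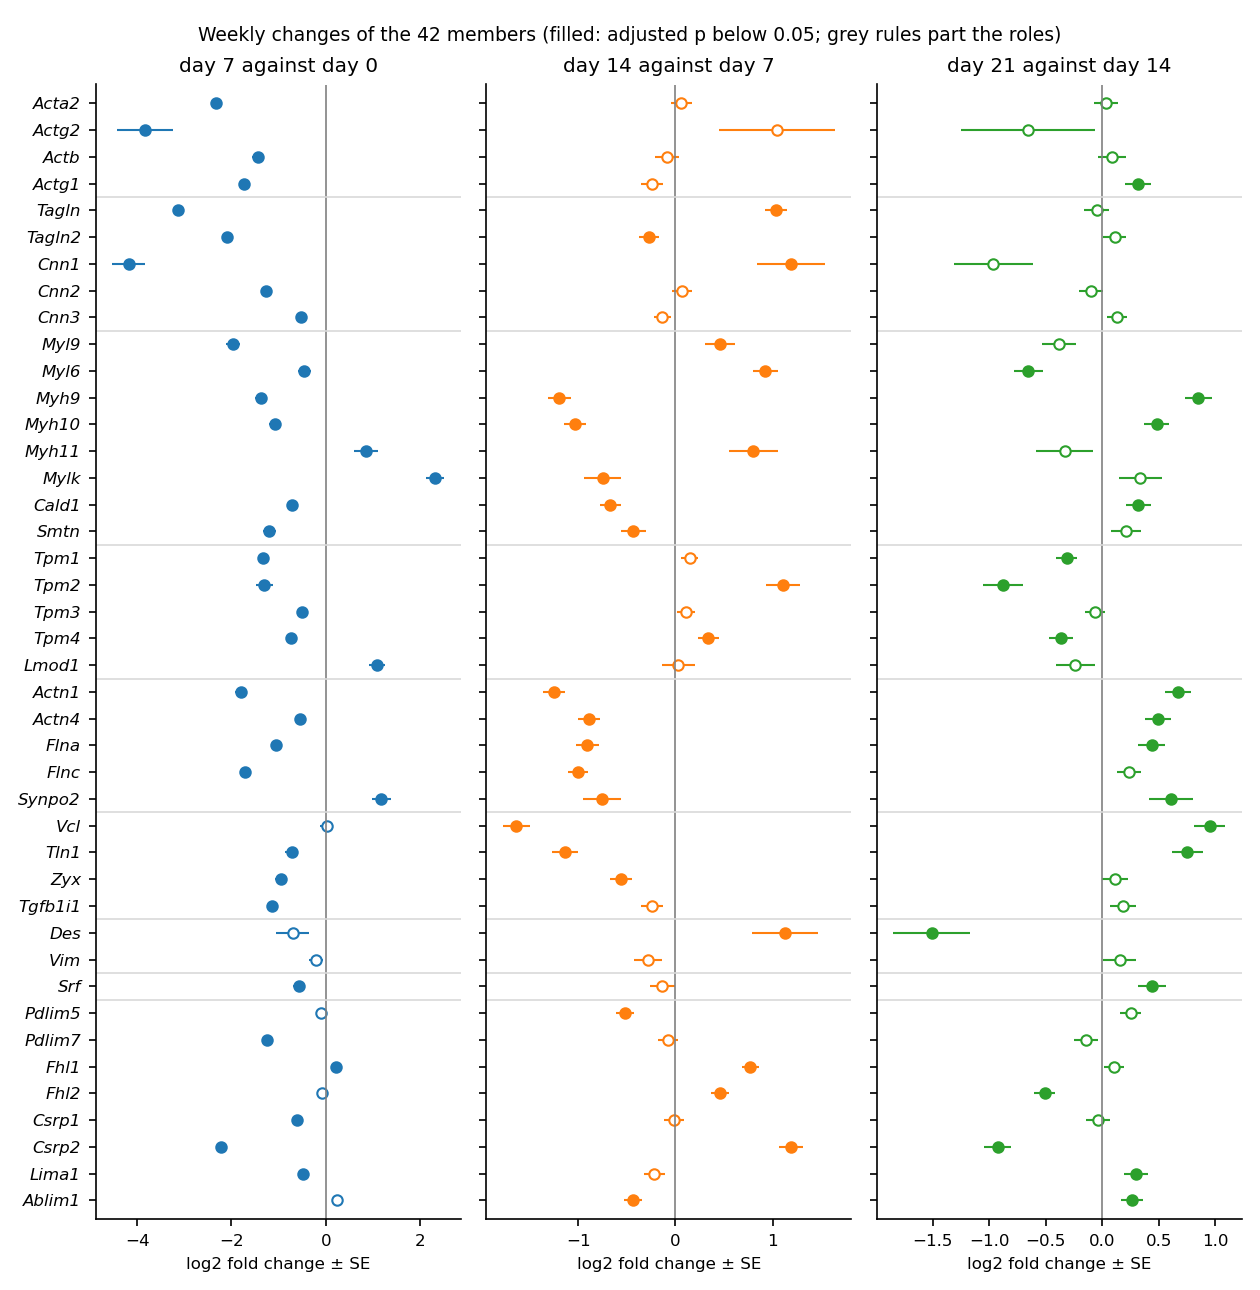
Log2 fold change with its standard error for each of the 42 members in the steps of day 7 against day 0, day 14 against day 7 and day 21 against day 14, grouped by role, with filled points at adjusted p below 0.05. Most filled points lie left of 0 in the first week, from -4.18 for Cnn1 to 2.32 for Mylk, and on both sides of 0 in the second and in the third week.

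In the second week the set divided. At day 14 against day 7, 27 members were called, where 52% of all tested genes were called. Of these 11 were higher, where 25% of all tested genes were called higher, and 16 were lower, where 27% were called lower. The median was -0.14, and that of all tested genes was close to 0. Higher were Tagln, Cnn1, Myl9, Myl6, Myh11, Tpm2, Tpm4, Des, Fhl1, Fhl2 and Csrp2, from 0.34 for Tpm4 to 1.19 for Cnn1 and Csrp2. Lower were Myh9 (-1.20 ± 0.12), Myh10, Mylk, Cald1, Smtn, Tagln2, the 5 crosslinkers (Actn1 at -1.25 ± 0.11), Vcl, Tln1, Zyx, Pdlim5 and Ablim1. Myh9, Myh10, all crosslinkers and 3 of the 4 adhesion linkers thus fell, while the light chains Myl6 and Myl9 rose. With the length and GC trend removed, the falls of Flna, Flnc and Synpo2 and the rise of Myl9 were not called. Those of Myh9, Myh10, Actn1, Actn4, Vcl, Tln1, Zyx and Myl6 still were. The number higher was 7 without day 7 replicate 2 and 6 without day 14 replicate 2. The calls of Cnn1, Myl9, Myh11, Tpm4 and Des were each lost without at least 1 of the libraries of days 7 and 14, as were those of Smtn and Synpo2. That of Tagln2 was lost without either day 0 library, either day 7 library or day 14 replicate 1.

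In the third week myosin heavy chains, actinins and adhesion proteins were among the members that rose, and tropomyosins among those that fell. At day 21 against day 14, 20 members were called, where 34.5% of all tested genes were called. Of these 13 were higher, where 20.2% of all tested genes were called higher, and 7 were lower, where 14.3% were called lower, with a median of 0.11 beside 0.02 for all tested genes. Those higher were Actg1, Myh9, Myh10, Cald1, Actn1, Actn4, Flna, Synpo2, Vcl, Tln1, Srf, Lima1 and Ablim1, with Vcl (0.95 ± 0.14 SE, adjusted p = 6.67e-04) and Myh9 (0.85 ± 0.12 SE, adjusted p = 6.15e-04) the largest. The lower ones were Myl6, Tpm1, Tpm2, Tpm4, Des, Fhl2 and Csrp2, with Des (-1.51 ± 0.34 SE, adjusted p = 0.006) and Csrp2 (-0.93 ± 0.12 SE, adjusted p = 3.99e-04) the largest. Since both weekly steps use the day 14 libraries, a value that is low at day 14 enters both, and opposite signs in the 2 steps are not separate evidence. The number higher was 4 without day 21 replicate 2, and 8 without either day 7 library, under quantile normalization or with no filter on low values. The number lower was 4 without day 21 replicate 2. Myh9, Actn1, Vcl and Tln1 were the rises, and Myl6, Tpm2 and Csrp2 the falls, that held under all 17 alternatives.

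Followed over all 3 weeks, 9 members fell in the first and were not called again, namely Acta2, Actg2, Actb, Cnn2, Cnn3, Tpm3, Tgfb1i1, Pdlim7 and Csrp1 (21.4% of members and 11.1% of tested genes had this course). A further 7 fell in the first and second weeks and rose in the third, namely Myh9, Myh10, Cald1, Actn1, Actn4, Flna and Tln1 (16.7% of members, 6.11% of tested genes). Myl6, Tpm2, Tpm4 and Csrp2 fell, rose and fell again (9.52% of members, 3.04% of tested genes). Mean levels were highest at day 0 in 32 members and lowest at day 14 in 21. Both counts were made for members only, so they cannot be set against a share of all tested genes.

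The division of weeks 2 and 3 ran along transcript length, a property shared with genes outside the set. Across all 13421 tested genes with a known length, the log2 difference per doubling of length was -0.01 at day 7 against day 0, -0.38 at day 14 against day 7 and 0.25 at day 21 against day 14. Across the 42 members the correlation of the log2 difference with log2 length was 0.50, -0.67 and 0.58 in the same order of steps (n = 42 genes, a description). Of the 21 longer members (2890 to 9203 bases) 15 were lower and 2 higher at day 14 against day 7, whereas of the 21 shorter ones (1128 to 2770 bases) 1 was lower and 9 higher. At day 21 against day 14 the longer members had 11 higher and 2 lower, and the shorter ones 2 higher and 5 lower. Over all tested genes 27% were called lower and 25% higher at day 14 against day 7. At day 21 against day 14, 20.2% were called higher and 14.3% lower. Shares for other genes of like length were not taken. The cause of the length relation was not tested.

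When the trend of all genes with length and GC content was taken out of every library, 31 members were lower and 6 higher at day 7 against day 0, with a median of -0.85, where 31% of all tested genes were called lower and 30% higher. At day 14 against day 7, 16 were lower and 8 higher, where 21.3% of all tested genes were called lower and 18.6% higher. At day 21 against day 14, 9 were higher and 6 lower, where 16.2% were called higher and 9.91% lower. At day 14 against day 7 the fall of 10 members and the rise of 8 were called in both fits, and at day 21 against day 14 the fall of 6 and the rise of 7. In the second week Vcl stood at -1.23 ± 0.10 with the trend removed, beside -1.64 ± 0.14 before, and Actn1 at -1.02 ± 0.09, beside -1.25 ± 0.11 (SE). The falls of Myh9 (-0.49, beside -1.20), Myh10 (-0.40, beside -1.04) and Tln1 (-0.39, beside -1.13) were called but smaller. Falls of Flna, Flnc, Mylk, Smtn and Synpo2 lost their call in that week, and Myl9 and Ablim1 changed sign, to -0.05 and 0.14 without a call. The rises of Fhl2 and Tpm4 lost their call too, and Actb, Actg1, Cnn3, Csrp1, Pdlim7 and Vim, uncalled before, were called lower. In the third week the rises of Myh10, Cald1, Flna, Synpo2, Lima1 and Ablim1 and the fall of Tpm4 lost their call, and Cnn3 and Tagln2 were called higher. Against day 0 the day 14 falls were smaller with the trend removed for Myh9 (-1.75), Myh10 (-1.41), Flna (-1.16), Flnc (-1.77) and Tln1 (-0.98), and the rises larger for Myh11 (2.30) and Mylk (2.32).

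**Figure D4:**
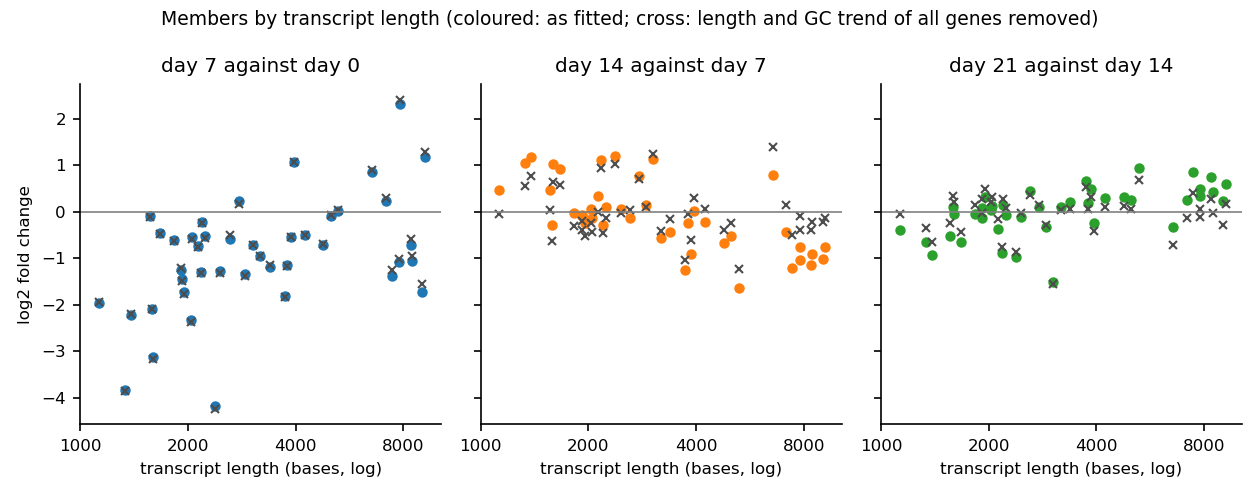
Log2 fold change of each of the 42 members against transcript length in bases (log axis) in the 3 weekly steps, as fitted (coloured) and with the length and GC trend of all genes removed (cross). Longer members lie lower in the second week (correlation -0.67) and higher in the third (0.58).

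At the later times the set as a whole stayed below its day 0 level. At day 14 against day 0, 38 members were called, where 70.7% of all tested genes were called. Of these 32 were lower, where 35.6% of all tested genes were called lower, and 6 were higher, where 35.2% were, with a median of -1.27 beside 0.00. At day 21 against day 0, 37 members were called, where 59.4% of all tested genes were called. Of these 32 were lower, where 29.5% of all tested genes were called lower, and 5 were higher, where 29.8% were, with a median of -1.09 beside 0.00. Falls of at least 2-fold were seen in 24 members at day 21, against 10.1% of all tested genes. Higher at day 21 were Mylk, Myh11, Fhl1, Synpo2 and Lmod1, and all 5 held under all 17 alternatives, as did 29 of the 32 falls, the exceptions being Des, Pdlim5 and Lima1. The call of Lima1 was lost without day 0 replicate 1. The comparisons with day 0 share its 2 libraries, so they are not separate evidence. Fewer members were called between the last and first times in the medium. At day 21 against day 7, 9 members were called, where 8.74% of all tested genes were called. Of these 2 were higher, where 5.46% of all tested genes were called higher, namely Tagln and Fhl1 (0.87 ± 0.09 SE, adjusted p = 1.14e-04), and 7 were lower, where 3.28% were called lower. The 7 were Myh10, Actn1, Actn4, Flna, Flnc, Vcl and Zyx, from -0.40 to -0.77. That number was 1, Flnc, without day 7 replicate 1, day 7 replicate 2 or day 21 replicate 1, and 4 without either day 0 library or with no filter on low values.

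Members fell by day 7 for the most part both with and without a CArG box. At day 7 against day 0, 6 of the 9 with a box were lower and 1 was higher, with a median of -0.49. Of the 27 members with a window but no box, 20 were lower and 3 higher, with a median of -0.73. Of all tested genes 27.9% were called lower and 27.5% higher. At day 21 against day 0 the medians were -0.41 with a box and -1.08 without. Of the Srf cofactors, Mkl1 (-0.55 ± 0.13) and Elk3 (-0.33 ± 0.09) fell by day 7 (SE), and Mkl2 was uncalled at -0.17 ± 0.17. Myocardin (Myocd), the cofactor of smooth and heart muscle, was scarce but higher, at 17.3 and 12.5 normalized counts at day 7, against 2.39 and 1.31 at day 0. In all, 1 of the 6 cofactors rose and 2 fell by day 7, beside the 27.5% of all tested genes called higher and 27.9% called lower. At day 14 against day 7, 5 of the 6 fell, led by Mkl2 at -1.05 ± 0.17, where 27% of all tested genes were called lower. At day 21 against day 14, 3 rose, where 20.2% of all tested genes were called higher.

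Genes of related lists also changed in the first week, when 27.9% of all tested genes were called lower and 27.5% higher. Of 24 genes of actin assembly and turnover, 16 were lower at day 7 and 2 higher, with a median of -0.41. The monomer-binding thymosin Tmsb10 (-1.81 ± 0.11) and the severing protein cofilin, Cfl1 (-1.27 ± 0.10), fell, while gelsolin, which severs and caps filaments, had the largest change of the list (3.73 ± 0.17 SE, adjusted p = 3.00e-09). Of 13 tubulin and microtubule genes 12 were lower and none was higher, with a median of -1.56. Among these, Tubb3 (-3.45 ± 0.09), the depolymerising protein Stmn1 (-2.88 ± 0.17) and Tubb6 (-2.63 ± 0.10) fell most, and Map4 (0.01 ± 0.09) was not called. Of 18 focal adhesion genes outside the set, 9 were lower and 4 higher, among them Pdlim3 (2.62 ± 0.09) and the tensin Tns1 (1.42 ± 0.12). The YAP and TEAD list, another pathway driven by tension, was mixed, with 5 of 14 lower, 3 higher and a median of 0.02. Its factor Tead2 (-1.82 ± 0.14) fell, but the standard targets Ctgf (0.23 ± 0.12) and Cyr61 (0.02 ± 0.13) were not called.

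Of all tested genes 27% were called lower and 25% higher at day 14 against day 7, and 20.2% higher and 14.3% lower at day 21 against day 14. At day 14 against day 7, 12 of the 18 focal adhesion genes were lower and 2 higher, led by Lpp (-1.15 ± 0.11) and the integrin Itga5 (-1.02 ± 0.10), and at day 21 against day 14, 7 were higher and 2 lower, led by Lpp (0.91 ± 0.11). Of the 24 assembly genes 6 were higher and 5 lower at day 14, with Tmsb4x (1.21 ± 0.14) among the higher and Wasf2 (-1.34 ± 0.17) among the lower, and 1 was higher and 3 lower at day 21 against day 14. The tubulin list had 2 higher and 4 lower at day 14 against day 7, and 1 higher and none lower at day 21 against day 14. Of the 14 YAP and TEAD genes 7 were lower and none higher at day 14 against day 7, and 5 were higher and none lower at day 21 against day 14, led by Cyr61 (1.28 ± 0.13). The counts of these lists and of the Srf cofactors come from the fit that keeps the length trend. That trend over all genes was -0.38 per doubling of length at day 14 against day 7 and 0.25 at day 21 against day 14. How far the lists follow transcript length was not tested. The immediate early gene Fos, a target of Srf with its ternary complex factors, was highest at day 21, with 561 and 574 normalized counts before the medium, 4468 and 5549 after 7 days, 3888 and 5252 after 14 days, and 22002 and 29518 after 21 days.

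The 10 tested genes whose log2 levels over the 8 libraries were most like those of Acta2 had Pearson correlations of 0.996 to 0.998 (n = 8 libraries at 4 times, so the day 0 pair sets most of the value). They were Fam64a, Cenpn, Tk1, Ube2c, Tubb6, Matn3, Troap, Sae1, Tuba1a and Ddit4l, none of them 1 of the 42 genes. Fam64a averaged 22.3 normalized counts at day 21, against 301 at day 0, and Tuba1a 8964 at day 21, against 25744 at day 0. The proliferation marker Mki67 had 1598 and 1404 normalized counts before the medium, 53.7 and 51.7 after 7 days, 21.9 and 32.7 after 14 days, and 30.97 and 35.99 after 21 days.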

How the data were processed

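The deposited table holds a signal per gene, which by its steps is a read count divided by 1 factor per library, called normalized counts here. Tools named in the submitters' processing notes are TopHat2 2.0.11, HTSeq 0.6.1 and DESeq, without their roles, and the build is mm9. Which annotation was used, and the libraries' strand, is not given in the sources used here. The value of 1 read was found in each library, and 100% of its values were whole reads within 0.01. Values were log2-transformed after adding 1, genes with at least 10 in at least 2 of 8 libraries were kept, and limma 3.58.1 (trend) was fitted to all 8 libraries at once (4 residual and 8.16 prior degrees of freedom). Adjustment was that of Benjamini and Hochberg over all 13527 tested genes, with calls below 0.05. Errors of differences are standard errors of this fit.

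Alternatives, 17 in all, were TMM scaling, quantile normalization, edgeR 4.0.16 and DESeq2 1.42.0 on the recovered reads, a pseudocount of 8, no filter, a replicate block, removal of the length and GC trend without and with that block, and each library left out in turn. Transcript lengths (longest basic transcript) came from GENCODE M21 by symbol for 23640 genes (98.4%). With the strand unknown, members that overlap genes on the other strand are uncertain, among them Vcl, and Tagln, Actn4, Tln1 and Zyx, which share 91 to 316 exonic bases with a coding gene. Noncoding genes on the other strand share exonic bases with members too, among them 877 with Tagln, 556 with Smtn, 363 with Actn1, 333 with Mylk and 332 with Cnn3. A further list of genes is not reported here. All 42 members are named; of other lists, up to 3 called genes with the largest change and 2 uncalled genes with the highest mean per comparison, plus Tcf21, Mki67, Pdgfra, Fos and Egr1. Members and lists were chosen with earlier results of these data known. The fit was also run on simulated counts in which few genes changed. In these data 55.4% of tested genes were called at day 7 against day 0, so no result here rests on that run. Software was R 4.3.3, Python 3.11.15 and, for figures, matplotlib 3.10.9.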

Additional observations from a re-analysis of the deposited data

How the results depend on the processing

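The first-week fall of the members and their lower level at days 14 and 21 against day 0 kept their direction under all 17 alternatives, with counts within 1.5 times of those reported (30 to 31, 31 to 33 and 30 to 33 members lower with a library left out). Leaving out each library in turn gave 3 to 6 members higher at day 7 against day 0, 6 to 12 higher at day 14 against day 7, 4 to 14 higher and 4 to 10 lower at day 21 against day 14, and 1 to 10 lower at day 21 against day 7. Genes called ranged from 2303 to 5750 at day 21 against day 14 (main 4664), and from 262 to 2173 at day 21 against day 7 (main 1182). With no filter on low values 8 members were higher at day 21 against day 14, and at day 21 against day 7 there were 4 members lower and 739 genes called. Quantile normalization left 8 members higher at day 21 against day 14. With 2 libraries a time, every call rests on a spread estimated over all times.

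With the length and GC trend removed, the sign turned for Myl9 (-0.0475) and Ablim1 (0.14) at day 14 against day 7, for Flna (-0.0230) and Ablim1 (-0.13) at day 21 against day 14, and for Fhl2 (-0.0634) and Ablim1 (0.43, adjusted p = 4.31e-04) at day 14 against day 0. The same values came with the replicate block added. Acta2 at day 14 against day 7 (0.06) was -0.23 in both of these fits, uncalled without the block (adjusted p = 0.0587) and called with it (adjusted p = 0.0480). The removal itself takes out the shared length trend. Libraries with the same replicate number shared little deviation from their group means (correlations of same-numbered deviations between -0.04 and 0.07). This cannot tell whether they share a mouse or culture. As a block the replicate numbers moved no count of calls by over 1.5 times and left 31 members lower at day 7 against day 0, and the call of Fhl1 there was lost (adjusted p = 0.0527).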
